A study of Homo sapiens with 9 samples.

Results

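The 53 genes described here encode the heat shock proteins and their partners: HSP70 proteins, their HSP110 nucleotide exchange factors, HSP90 proteins, the mitochondrial chaperonin, small heat shock proteins, DNAJ proteins, BAG proteins, heat shock factors and co-chaperones. They were taken by symbol from a fixed list, and all 53 were matched to 1 of the 60683 gene IDs in the files. The list was named as cytosolic, and 45 members act in the cytosol or nucleus, but 5 encode mitochondrial proteins (HSPA9, TRAP1, HSPD1, HSPE1 and DNAJA3) and 3 encode proteins of the endoplasmic reticulum (HSPA13, DNAJB12 and DNAJB14). Low counts kept HSPA1A, CRYAB and DNAJA4 out of the tests, so 50 members were tested in each comparison.

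HSP70 proteins bind unfolded stretches of other proteins and release them when ATP is exchanged. DNAJ proteins deliver the clients and start ATP hydrolysis, HSP110 and BAG proteins speed the exchange of nucleotide, and HSP90 with its co-chaperones takes over partly folded clients such as kinases and steroid receptors. When unfolded proteins accumulate, the transcription factor HSF1 is freed from chaperones and binds heat shock elements, inverted repeats of the triplet GAA, near the starts of the inducible members. Several of these chaperones act on polyglutamine proteins, which expanded CAG repeats encode, and DNAJB6 is a strong suppressor of polyglutamine aggregation.

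RNA came from HEK293T cells, a human embryonic kidney line with the SV40 large T antigen. Parental cells had no reporter. In clone 15 and clone 37 the piggyBac transposon had placed ATG-(CAG)60-Myc-NLuc, in which 60 CAG units precede NanoLuc, and ATG-(CAG)0-Myc-FLuc, a firefly luciferase reporter with 0 CAG units. Both clones were grown from single sorted cells and kept in the same medium as parental cells. Clone 37 was labelled as a high and clone 15 as a low expresser of both integrands, 1 clone stood for each level, and the labels name no heat treatment. Each group had 3 libraries, parental and clone 37 read at 75 bp and clone 15 at 100 bp, so clone 15 and read length cannot be told apart. The labels do not say whether replicates were separate cultures, so p-values measure the spread between these libraries.

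Gene counts per library ran from 10334090 to 38093340, and the 3 clone 15 libraries were the deepest. Read pairs that mapped to several places, which were not counted, made up 4.59% to 5.98% in clone 15 and 10.4% to 14.0% in parental and clone 37, and the part of this gap in the values of members with shared sequence (above all HSPA1A, HSPA1B, HSPA14, HSPE1, ST13 and HSPD1) was not tested. Parental replicate 2 and clone 15 replicate 2 stood apart from their groups: pairs of libraries that included parental replicate 2 differed by 11.5 and 11.6 times counting noise (chi-square per degree of freedom), against 1.99 for the other parental pair, and pairs with clone 15 replicate 2 by 8.19 and 9.97 times, against 4.53. All 7 HEK293T markers examined were above 1 CPM in every library, with summed levels of 1261 to 1551 CPM in parental, 4034 to 4190 in clone 15 and 794 to 864 in clone 37. NEFM (475 to 633, 2646 to 2810 and 135 to 139 CPM in that order) and NEFL (213 to 256, 704 to 737 and 59.8 to 61.4 CPM) carried most of this gap, while VIM overlapped between the groups (506 to 586, 539 to 554 and 509 to 576 CPM) and LHX1 was highest in clone 37. Summed markers of blood cells reached at most 1.92 CPM, of hepatocytes 0.387 and of muscle 1.10. The 3 fibroblast markers summed to 34.7 to 37.8 CPM in parental, 48.9 to 111 in clone 15 and 18.9 to 20.9 in clone 37, and their part in the results was not tested. In such bulk samples, fewer cells with a transcript and less of it per cell cannot be told apart.

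The first comparison asked which members differed between clone 37 and parental cells. In clone 37, 29 of the 50 tested members rose, 7 fell and 14 were not called (edgeR's quasi-likelihood test, Benjamini-Hochberg adjusted p under 0.05 over all genes). Over all 16501 genes tested, 26.7% were called higher, 27.3% lower and 54% in either direction. Their median log2 fold change was 0.26, against 0.02 over all genes. At a log2 fold change of 0.5 or more, 14 members were higher and 5 lower, where 11.9% of all genes were called higher and 14.9% lower by that much. The members that rose by most were HSPA1B, DNAJB1, BAG3, BAG2, CHORDC1 and FKBP4, and those that fell by most were HSPB1, DNAJB6, DNAJB2 and HSPA13. Without parental replicate 2, 31 members were higher and 7 lower, where 28.2% and 31.2% of all genes were.

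The members were also split by induction by heat. From textbook knowledge, 18 members were marked as heat-inducible, and 16 of these were tested. The marked members include HSPA8 and HSP90AB1, which are described below as constitutive, so the mark does not mean absent without heat. How the split would look under other marks was not tested. In clone 37, where 26.7% of all genes rose and 27.3% fell, 12 of the 16 rose (HSPA1B, HSPA8, HSPA4L, HSPH1, HSP90AA1, HSP90AB1, DNAJB1, BAG3, STIP1, AHSA1, CHORDC1 and FKBP4), 1 fell (HSPB1), and HSPD1, HSPE1 and DNAJA1 were not called. Their median log2 fold change was 0.65. Of the 34 other tested members, 17 rose, 6 fell and 11 were not called, with a median of 0.19. The list was drawn up with earlier results of these data known, and the difference between the lists was not tested.

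In clone 15, the low expresser, 17 of 50 members rose, 14 fell and 19 were not called. Over the 17703 genes tested, 25.1% were called higher, 26.2% lower and 51.4% in either direction. The median over the members was 0.08, against 0.02 over all genes. At least 0.5 on the log2 scale separated 9 members that were higher and 5 that were lower, where 14.1% of all genes were called higher and 15.1% lower by that much. At an adjusted p under 0.05, for which the shares of all genes were 25.1% higher and 26.2% lower, 9 of 16 heat-inducible members rose, 1 fell (HSPD1) and 6 were not called, with a median of 0.30. Among the others 8 of 34 rose, a share close to that of all genes, and 13 fell, with a median of -0.07. Without clone 15 replicate 1, 9 members were called lower, where 22.7% of all genes were. Without parental replicate 2, 22 members were higher and 12 lower, where the shares of all genes were 23.3% and 24.7%. Without clone 15 replicate 2, 20 were higher and 11 lower, against 24% and 23.6% of all genes.

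Both comparisons used the same parental libraries, so the values of the clones are set side by side for each member. Compared directly, clone 37 stood above clone 15 for 30 members and below it for 11, and 9 were not called. Over the 17712 genes tested between the clones 28.7% were called higher in clone 37, 29% lower and 57.7% in either direction. The members' median log2 difference was 0.26, against -0.00 over all genes.

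**Figure D1:**
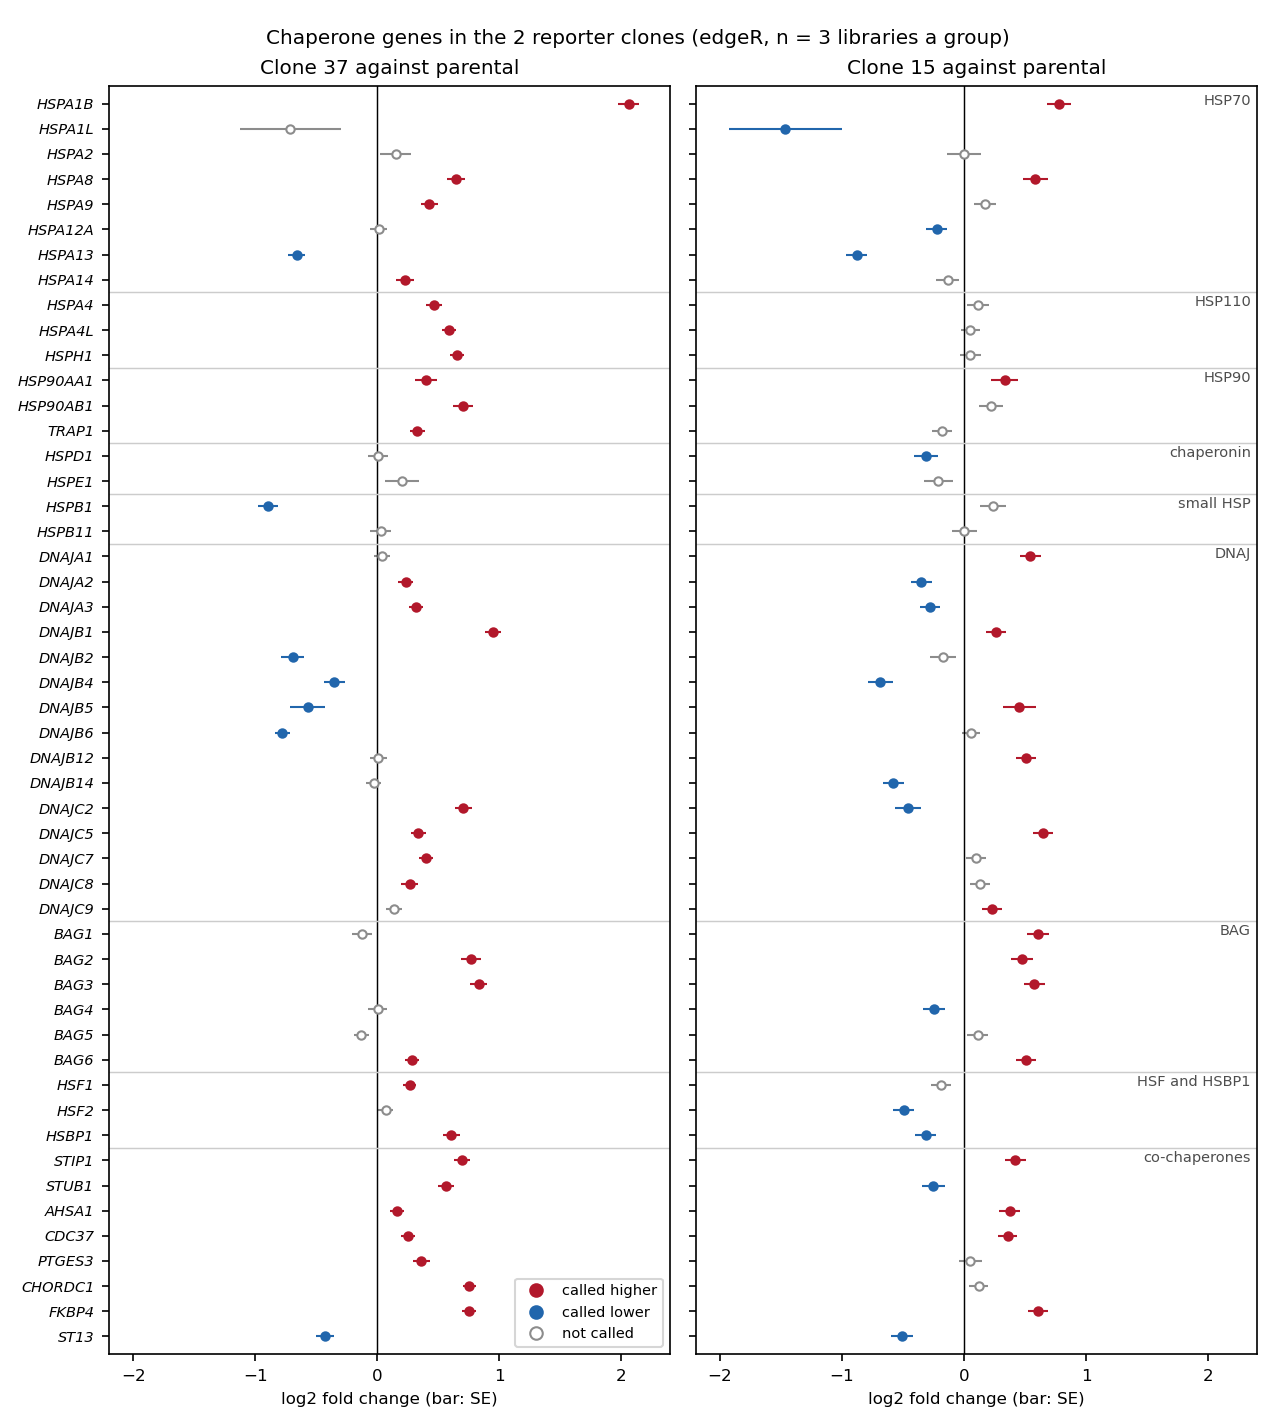
Log2 fold change of each of the 50 tested members in clone 37 (left) and clone 15 (right) against parental, with bars of 1 standard error and rows grouped by family. In clone 37, 29 points are called higher and 7 lower, with HSPA1B farthest to the right at 2.06, and in clone 15, 17 are called higher and 14 lower.

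The HSP70 family held the member with the largest increase. HSPA1A and HSPA1B encode the same stress-inducible HSP70 and lie near each other on chromosome 6, and 71.2% of the 75-base stretches of HSPA1A and 73.2% of those of HSPA1B also occur in another gene. The counts were lopsided: HSPA1B (ENSG00000204388, chromosome 6, 31827735 to 31830255) had parental counts of 1867, 2884 and 2102, while HSPA1A (ENSG00000204389, chromosome 6, 31815464 to 31817946) had 1, 1 and 3. In clone 15 HSPA1A had 4, 11 and 1 counts and in clone 37 2, 1 and 4, so it stayed at or near the floor of 3 counts in most libraries. Pairs of reads that mapped to several places were not counted, and which stretches the counted reads came from cannot be seen from the counts, so the sum of both genes is given as well. In addition, 36.5% of the HSPA1B exons overlap a further annotated gene, AL671762.1, on the same strand.

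HSPA1B was at 173, 207 and 161 CPM in parental cells, at 327, 330.1 and 293 CPM in clone 15 and at 758, 793 and 749 CPM in clone 37, where CPM is the gene count scaled to the library's summed gene counts and the 3 values of a group follow replicates 1, 2 and 3 here and throughout. No 2 groups overlapped: clone 37 was highest and parental lowest. The log2 fold change against parental was 2.06 (adjusted p 1.29e-11, SE 0.09) in clone 37 and 0.78 (adjusted p 1.03e-06, SE 0.10) in clone 15, and clone 37 exceeded clone 15 by 1.28 (adjusted p 2.04e-17, SE 0.05). All adjusted p-values given for members are from the edgeR quasi-likelihood test. The 100 tested genes around HSPA1B had a median of 0.20 in clone 37 and 0.29 in clone 15. Summed, the pair gave 180 ± 24.1 CPM in parental cells, 317 ± 21.0 CPM in clone 15 and 767 ± 23.2 CPM in clone 37 (SD, n = 3). These means were 4.25 times the parental mean in clone 37 and 1.76 times in clone 15, each with a two-sided exact permutation p of 0.1, the smallest that 3 against 3 allows.

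The promoters of the pair are shown because HSPA1B moved more than any other member. Both sequences come from RefSeq (GRCh38.p14), run 5′ to 3′ on the plus strand and end before the annotated transcript, and capitals mark the word GAANNTTC, an inverted pair of GAA units. HSPA1A covers chr6:31815293-31815463 and HSPA1B covers chr6:31827488-31827734.
HSPA1A: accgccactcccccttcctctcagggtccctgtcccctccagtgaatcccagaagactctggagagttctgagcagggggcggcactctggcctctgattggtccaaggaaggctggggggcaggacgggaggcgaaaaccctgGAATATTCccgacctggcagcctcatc
HSPA1B: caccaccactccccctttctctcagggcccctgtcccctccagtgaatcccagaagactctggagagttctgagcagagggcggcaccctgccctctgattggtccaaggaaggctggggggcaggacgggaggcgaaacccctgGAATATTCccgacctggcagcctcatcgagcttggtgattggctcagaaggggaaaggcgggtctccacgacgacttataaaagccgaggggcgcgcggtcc
Each holds 1 such word, with the same 8 letters, starting 106 bases before the start site in HSPA1A and 105 in HSPA1B. The promoter of HSPA1L, on the opposite strand, overlaps the HSPA1A stretch and holds the same word. HSPA1L, a testis HSP70, had only 7 to 15 counts per library in clone 15, at 0.925, 1.08 and 1.15 CPM in parental cells, at 0.210, 0.284 and 0.804 CPM in clone 15 and at 0.274, 0.677 and 0.971 CPM in clone 37. Clone 15 lay below parental without overlap, with a log2 fold change of -1.46 (adjusted p 0.00986, SE 0.46), but the adjusted p was 0.0967 without clone 15 replicate 1 and 0.064 without clone 15 replicate 2.

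HSPA8, the constitutive cytosolic HSP70 (ENSG00000109971, chromosome 11, 123057489 to 123063230), was at 834, 917 and 866 CPM in parental cells, at 1328, 1252 and 1431 CPM in clone 15 and at 1431, 1315 and 1414 CPM in clone 37. Both clones lay above every parental library and overlapped each other. The log2 fold changes were 0.64 (adjusted p 1.49e-06, SE 0.08) in clone 37 and 0.58 (adjusted p 2.69e-05, SE 0.10) in clone 15. Between the clones the adjusted p was 0.404, which does not show equal levels. HSPA13, a microsomal HSP70-like ATPase (ENSG00000155304, chromosome 21, 14371115 to 14383484), went the other way in both clones. It was at 121, 135 and 113 CPM in parental cells, at 68.5, 66.9 and 69.6 CPM in clone 15 and at 78.5, 79.3 and 79.5 CPM in clone 37, with parental highest, clone 15 lowest and no overlap. Its log2 fold changes were -0.66 (adjusted p 3.53e-07, SE 0.07) and -0.88 (adjusted p 6.45e-09, SE 0.09) in clones 37 and 15. Clone 37 was above clone 15 by 0.22, a direction that reversed to -0.09 when trends in GC content and length were removed.

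The remaining HSP70 members moved less. HSPA9, the mitochondrial HSP70, rose in clone 37 from 421 ± 30.0 to 575 ± 21.0 CPM (SD, n = 3), by 0.42 (adjusted p 6.37e-05, SE 0.07), and was not called in clone 15. HSPA14, a ribosome-associated HSP70, rose in clone 37 by 0.22 (adjusted p 0.0134, SE 0.07), but the adjusted p was 0.0557 without clone 37 replicate 1, 0.0806 without clone 37 replicate 3, 0.0579 without parental replicate 1 and 0.0973 without parental replicate 3. A second annotated gene of the same symbol overlaps 17.4% of its exons. HSPA12A fell in clone 15, with a log2 fold change of -0.22 (adjusted p 0.0283, SE 0.08), with an adjusted p of 0.0838 or 0.121 without clone 15 replicate 1 or 2 and 0.106 or 0.0677 without parental replicate 1 or 3. HSPA2, known for its role in sperm, was near 10 CPM in all groups (9.92 ± 0.839, 10.2 ± 0.490 and 11.2 ± 0.395 CPM in parental, clone 15 and clone 37) and was not called against parental.

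All 3 HSP110 genes rose in clone 37, where 26.7% of all genes did, and none was called in clone 15, where 51.4% of all genes were called in either direction. HSPH1, the inducible HSP110 (ENSG00000120694, chromosome 13, 31134974 to 31162388), was at 145, 160.1 and 158 CPM in parental cells, at 163, 148 and 180.0 CPM in clone 15 and at 253, 239 and 249 CPM in clone 37. Clone 37 stood clear of both other groups, which overlapped. The log2 fold change in clone 37 was 0.65 (adjusted p 8.83e-08, SE 0.06), where the genes around HSPH1 had a median of -0.12, and the difference from clone 15 was 0.60 (adjusted p 1.11e-08, SE 0.06). HSPA4L, a testis-rich and inducible HSP110 (ENSG00000164070, chromosome 4, 127781821 to 127840733), was at 155, 160.3 and 154 CPM in parental cells, at 174, 156 and 167 CPM in clone 15 and at 242, 241 and 235 CPM in clone 37. Here too clone 37 was highest without overlap, by 0.59 (adjusted p 1.05e-07, SE 0.06) against parental and 0.53 (adjusted p 4.3e-09, SE 0.06) against clone 15. HSPA4, the constitutive HSP110, rose from 354 ± 23.5 to 497 ± 16.2 CPM in clone 37 (SD, n = 3), by 0.46 (adjusted p 1.73e-05, SE 0.07), stood at 392 ± 25.1 CPM in clone 15, and differed between the clones by 0.35 (adjusted p 6.52e-06, SE 0.06).

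Levels of different members were compared only per kb of merged exons. On that scale the cytosolic HSP90 genes were highest: in parental cells HSP90AB1 reached 387 CPM per kb, HSP90AA1 299.6, the chaperonin HSPD1 203, HSPA8 179.9 and the HSP90 co-chaperone PTGES3 136. HSPA1B stood at 71.5 CPM per kb in parental cells, 126 in clone 15 and 304 in clone 37. Of its 75-base stretches 73.2% occur in another gene, and 36.5% of its exons overlap a further gene. Reads from such stretches may not have been counted, so its place beside the other genes may be too low. The merged exons of HSPA8 span 4849 bases and its longest transcript 2463, against 2980 and 2674 for HSP90AB1 and 2521 for both in HSPA1B, so the order of genes at like levels depends on the length that is divided by.

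HSP90AB1, the constitutive cytosolic HSP90 (ENSG00000096384, chromosome 6, 44246166 to 44253888), was at 1114, 1249.9 and 1095 CPM in parental cells, at 1368, 1359.7 and 1396 CPM in clone 15 and at 1963, 1808 and 1965 CPM in clone 37. The groups did not overlap, and clone 37 was highest. It rose in clone 37 by 0.70 (adjusted p 1.56e-06, SE 0.08) and stood above clone 15 by 0.48 (adjusted p 5.95e-09, SE 0.05), and was not called in clone 15 (adjusted p 0.0702). HSP90AA1, the inducible cytosolic HSP90, was at 1472, 1770.5 and 1475 CPM in parental cells, at 2075, 1882 and 2124 CPM in clone 15 and at 2092, 2044 and 2194 CPM in clone 37. Both clones lay above parental and overlapped each other. It rose by 0.40 (adjusted p 0.00121, SE 0.09) in clone 37, against a median of -0.38 for the genes around it on chromosome 14, and by 0.33 (adjusted p 0.0154, SE 0.11) in clone 15. The call in clone 15 ended without parental replicate 1 (adjusted p 0.106) and without parental replicate 3 (adjusted p 0.104). TRAP1, the mitochondrial HSP90, rose in clone 37 by 0.33 (adjusted p 0.000207, SE 0.06), as much as the genes around it on chromosome 16 (median 0.32).

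**Figure D2:**
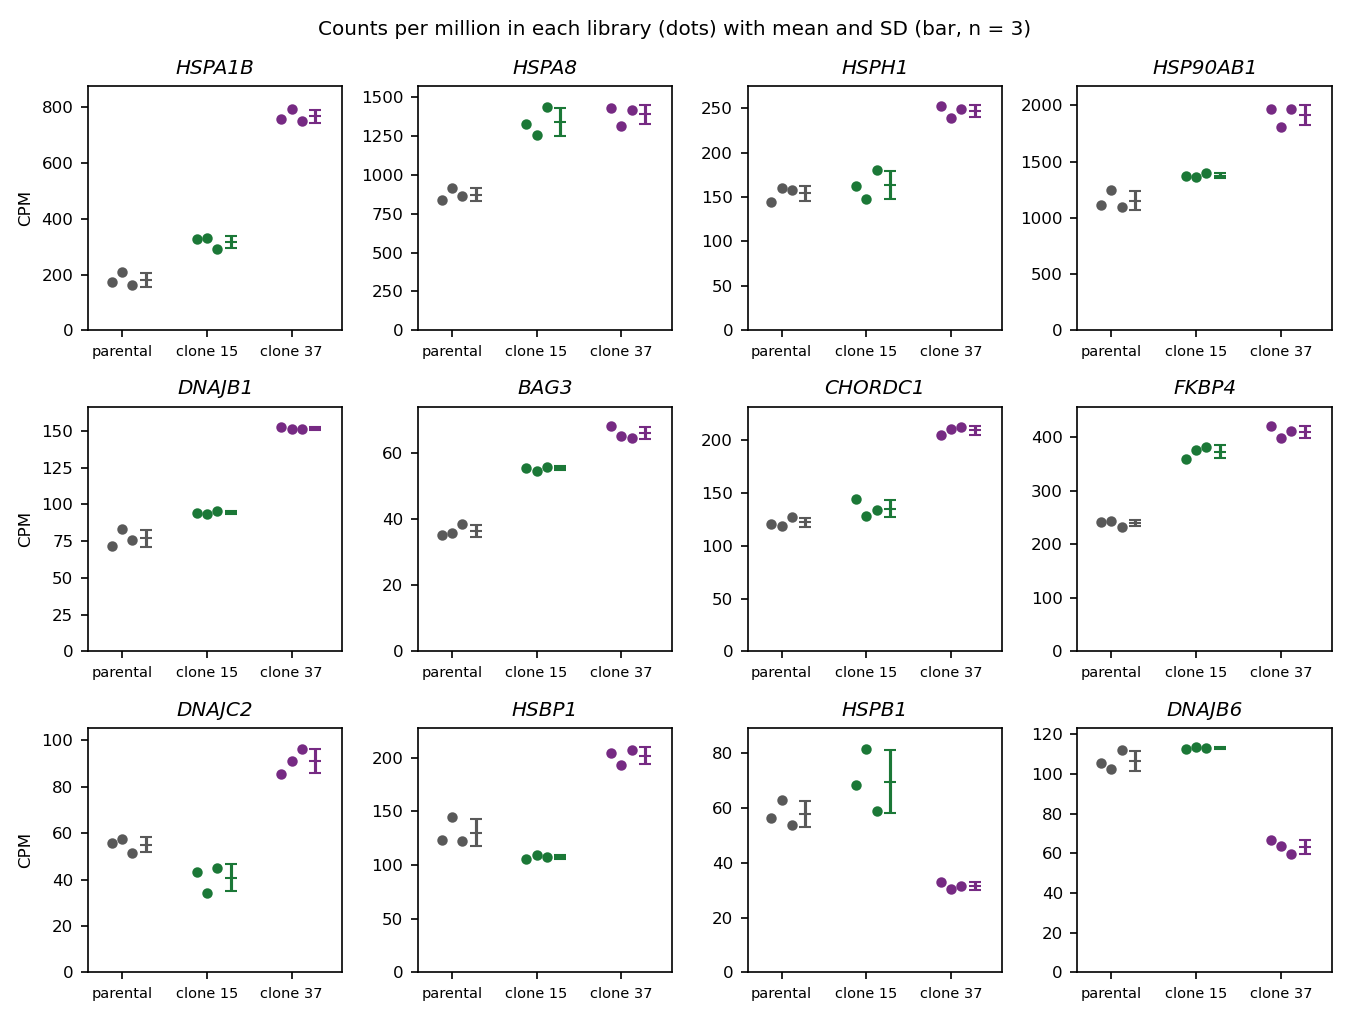
CPM of 12 members in each library (dots, replicates 1 to 3 from left to right), with the group mean and SD beside them, on axes that start at 0. HSPA1B, DNAJB1, BAG3 and FKBP4 step up from parental to clone 15 to clone 37, HSPH1 and CHORDC1 stand out in clone 37, and HSPB1 and DNAJB6 are lowest in clone 37.

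The chaperonin pair HSPD1 and HSPE1, which fold proteins inside mitochondria and share a promoter region, were not called in clone 37. HSPD1 was at 803, 961 and 821 CPM in parental cells, at 726, 662 and 743 CPM in clone 15 and at 887, 851 and 908 CPM in clone 37, and parental and clone 37 overlapped while clone 15 lay below both. It fell in clone 15, with a log2 fold change of -0.31 (adjusted p 0.0127, SE 0.10), a call that ended without clone 15 replicate 2 (adjusted p 0.0669). The genes around it on chromosome 2 had a median of -0.50 there, and against them HSPD1 stood at 0.19. HSPE1 was at 37.5 ± 5.64, 33.3 ± 3.64 and 44.0 ± 6.57 CPM in parental, clone 15 and clone 37 (SD, n = 3), and 22.3% of its 75-base stretches occur in another gene, mostly HSPE1-MOB4, whose exons include part of it.

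Among small heat shock proteins, which hold unfolded proteins in solution without ATP, HSPB1 fell in clone 37. HSPB1, or HSP27 (ENSG00000106211, chromosome 7, 76302544 to 76304295), was at 56.2, 62.9 and 53.7 CPM in parental cells, at 68.4, 81.4 and 58.8 CPM in clone 15 and at 33.0, 30.3 and 31.3 CPM in clone 37. Every clone 37 library lay below every other library, and parental and clone 15 overlapped. The log2 fold change in clone 37 was -0.90 (adjusted p 6.58e-08, SE 0.08), opposite to the 0.14 of the genes around it, and the difference from clone 15 was -1.14 (adjusted p 1.7e-09, SE 0.09). It was the sole heat-inducible member called lower in clone 37. CRYAB had counts of 3, 13 and 2 in parental cells, of 3, 0 and 3 in clone 15 and of 1, 0 and 0 in clone 37, too few for a test. HSPB11, an intraflagellar transport protein named with this family, was at 26.6 ± 1.84, 27.3 ± 1.52 and 27.5 ± 0.865 CPM in the 3 groups and was not called in any comparison.

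Of 15 DNAJ proteins tested, 7 rose, 4 fell and 4 were not called in clone 37, where 26.7% of all genes rose and 27.3% fell. In clone 15, 6 rose, 5 fell and 4 were not called, where the shares of all genes were 25.1% and 26.2%. Their fallen share in clone 37 was thus close to that of all genes. DNAJB1, or HSP40, the inducible partner of cytosolic HSP70 (ENSG00000132002, chromosome 19, 14514770 to 14529770), was at 72.1, 83.4 and 75.5 CPM in parental cells, at 93.9, 93.7 and 95.8 CPM in clone 15 and at 153, 151 and 151 CPM in clone 37. The 3 groups were apart, clone 37 highest. The log2 fold change was 0.95 (adjusted p 1.51e-09, SE 0.06) in clone 37, 0.26 (adjusted p 0.0118, SE 0.08) in clone 15 and 0.69 (adjusted p 1.55e-11, SE 0.05) between the clones. The clone 15 change matched the median of the genes around it (0.26), and its adjusted p was 0.126 without parental replicate 1 and 0.0813 without parental replicate 3. In clone 37 the genes around it had a median of 0.25.

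The stretch before the second of the 3 RefSeq starts of DNAJB1 is shown because DNAJB1 had the next largest increase in clone 37 after HSPA1B. It covers chr19:14518421-14518647 on the minus strand of GRCh38.p14 (RefSeq), and capitals mark the 2 words GAANNTTC.
DNAJB1: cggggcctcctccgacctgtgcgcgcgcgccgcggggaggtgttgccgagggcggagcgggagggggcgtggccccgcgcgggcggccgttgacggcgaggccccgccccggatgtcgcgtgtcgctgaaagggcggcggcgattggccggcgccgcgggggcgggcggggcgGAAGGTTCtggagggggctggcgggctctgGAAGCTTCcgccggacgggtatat
The words start 77 and 47 bases before the start site.

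The other A-type and B-type DNAJ proteins, the classical partners of HSP70, followed no common direction. DNAJA1, a heat-inducible cytosolic DNAJ (ENSG00000086061, chromosome 9, 33025211 to 33039907), was at 184, 209.6 and 191 CPM in parental cells, at 303, 275 and 292 CPM in clone 15 and at 203, 192 and 217 CPM in clone 37. Clone 15 was highest without overlap, by 0.54 (adjusted p 1.11e-05, SE 0.09) against parental, while clone 37 overlapped parental and differed from clone 15 by -0.50 (adjusted p 3.03e-08, SE 0.06). The genes around DNAJA1 differed between the clones by a median of -0.64, and relative to them DNAJA1 stood at 0.14 (adjusted p 0.0521). DNAJB12, a membrane protein of the endoplasmic reticulum (ENSG00000148719, chromosome 10, 72332830 to 72355230), was at 48.8, 47.1 and 55.4 CPM in parental cells, at 69.7, 75.5 and 74.7 CPM in clone 15 and at 52.1, 51.2 and 51.4 CPM in clone 37 and likewise rose in clone 15, by 0.51 (adjusted p 1.63e-05, SE 0.08), with the other groups overlapping. The clone difference of DNAJB12 was -0.50 (adjusted p 1.3e-07, SE 0.06). DNAJB14, its paralog (ENSG00000164031, chromosome 4, 99896248 to 99946726), moved the opposite way, at 68.8, 64.4 and 66.4 CPM in parental cells, at 49.2, 42.8 and 43.7 CPM in clone 15 and at 65.7, 67.0 and 66.1 CPM in clone 37. Clone 15 was lowest without overlap, and its log2 fold change was -0.58 (adjusted p 3.6e-06, SE 0.09).

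DNAJB6, the suppressor of polyglutamine aggregation (ENSG00000105993, chromosome 7, 157335381 to 157417439), was at 105, 102 and 112 CPM in parental cells, at 112, 113 and 113 CPM in clone 15 and at 66.5, 63.8 and 59.6 CPM in clone 37. Clone 37 lay far below both other groups, and clone 15 was slightly above parental without overlap but was not called. The log2 fold change in clone 37 was -0.78 (adjusted p 1.21e-08, SE 0.06). The 100 genes around it on chromosome 7 had a median of -0.91, and relative to them DNAJB6 stood at 0.11 (adjusted p 0.178). DNAJB2, a DNAJ known from neurons (ENSG00000135924, chromosome 2, 219279267 to 219286900), was at 23.3, 25.0 and 23.0 CPM in parental cells, at 19.5, 22.9 and 22.7 CPM in clone 15 and at 14.8, 14.9 and 15.3 CPM in clone 37. Clone 37 was lowest and no groups overlapped. DNAJB2 fell in clone 37, with a log2 fold change of -0.69 (adjusted p 8.12e-06, SE 0.09), where its neighbours on chromosome 2 had a median of -0.37, and was not called in clone 15.

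DNAJB4, a cytosolic DNAJ of the DNAJB1 type (ENSG00000162616, chromosome 1, 77979175 to 78017964), was at 27.6, 26.0 and 28.7 CPM in parental cells, at 18.8, 17.1 and 16.0 CPM in clone 15 and at 20.5, 23.6 and 21.4 CPM in clone 37. Parental was highest and clone 15 lowest, without overlap. It fell in both clones, with log2 fold changes of -0.35 (adjusted p 0.00219, SE 0.09) in clone 37 and -0.69 (adjusted p 5.25e-06, SE 0.10) in clone 15, and its neighbours had medians of -0.30 and -0.41. DNAJB5, of the same type (ENSG00000137094, chromosome 9, 34989641 to 34998900), was at 10.1, 9.78 and 9.64 CPM in parental cells, at 12.2, 13.6 and 15.7 CPM in clone 15 and at 6.67, 5.90 and 7.53 CPM in clone 37. Parental lay between clone 15 above and clone 37 below, without overlap. The log2 fold changes were -0.57 (adjusted p 0.00264, SE 0.14) and 0.45 (adjusted p 0.00686, SE 0.14) in clones 37 and 15, and the clones differed by -1.02 (adjusted p 2.57e-07, SE 0.14). Around DNAJB5 on chromosome 9 the medians were -0.36 in clone 37 and 0.26 in clone 15.

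C-type DNAJ proteins with changes of at least 0.5 were DNAJC2 and DNAJC5. DNAJC2, or zuotin-related factor, binds the ribosome and acts on nascent chains (ENSG00000105821, chromosome 7, 103312474 to 103344873), and was at 55.8, 57.5 and 51.3 CPM in parental cells, at 43.4, 34.2 and 44.8 CPM in clone 15 and at 85.6, 91.0 and 96.2 CPM in clone 37. Clone 37 was highest, clone 15 lowest, and no groups overlapped. The log2 fold changes were 0.70 (adjusted p 1.89e-07, SE 0.07) in clone 37 and -0.46 (adjusted p 0.000664, SE 0.10) in clone 15, so that the clones differed by 1.16 (adjusted p 2.09e-08, SE 0.09). The genes around it had medians of 0.08 and -0.43. DNAJC5, the cysteine string protein of secretory vesicles (ENSG00000101152, chromosome 20, 63895182 to 63936031), was at 87.1, 94.7 and 87.0 CPM in parental cells, at 138, 159 and 134 CPM in clone 15 and at 117, 115 and 114 CPM in clone 37. All 3 groups were apart, clone 15 highest, and the log2 fold changes were 0.34 (adjusted p 0.000132, SE 0.06) in clone 37 and 0.65 (adjusted p 6.7e-07, SE 0.09) in clone 15.

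Smaller changes were called for DNAJA2, DNAJA3, DNAJC7 and DNAJC8 in clone 37, between 0.23 and 0.40 on the log2 scale. DNAJA2 lost its call without clone 37 replicate 3 (adjusted p 0.0806) or parental replicate 3 (0.105), and DNAJC8, a spliceosome-associated DNAJ, without the same libraries (adjusted p 0.114 and 0.0683). In clone 15 DNAJA2 and the mitochondrial DNAJA3 fell, with log2 fold changes of -0.35 and -0.28, the latter with an adjusted p of 0.0679 without clone 15 replicate 1. DNAJC9, a histone chaperone, rose in clone 15 by 0.23, with adjusted p-values of 0.152 and 0.139 without parental replicates 1 and 3. DNAJA4 had counts of 0, 0 and 0 in parental cells, of 4, 1 and 2 in clone 15 and of 0, 1 and 0 in clone 37.

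Of the 6 BAG proteins, which bind HSP70 and free its client, 3 were higher and none lower in clone 37 (26.7% and 27.3% of all genes), and 4 were higher and 1 lower in clone 15 (25.1% and 26.2%). Relative to the genes around them, 4 were higher in clone 37 and 3 in clone 15, against 18.3% and 20.2% of all genes, and none was lower, against 24.2% and 22.2%. BAG3, a heat-inducible partner of HSPB8 and HSP70 in selective autophagy (ENSG00000151929, chromosome 10, 119651370 to 119677819), was at 35.2, 35.7 and 38.5 CPM in parental cells, at 55.6, 54.7 and 56.0 CPM in clone 15 and at 68.1, 65.3 and 64.7 CPM in clone 37. The steps from parental to clone 15 to clone 37 did not overlap. It rose by 0.83 (adjusted p 1.9e-08, SE 0.07) in clone 37 and 0.57 (adjusted p 4.73e-06, SE 0.09) in clone 15, and the genes around it had medians of 0.11 and 0.04. BAG2, an inhibitor of the ubiquitin ligase STUB1 (ENSG00000112208, chromosome 6, 57172326 to 57189833), was at 25.4, 24.1 and 26.4 CPM in parental cells, at 34.9, 36.1 and 36.7 CPM in clone 15 and at 47.4, 40.3 and 44.0 CPM in clone 37, in the same order and also without overlap. The log2 fold changes of BAG2 were 0.77 (adjusted p 4.87e-07, SE 0.08) and 0.47 (adjusted p 0.000131, SE 0.09) in clones 37 and 15.

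BAG1 (ENSG00000107262, chromosome 9, 33247820 to 33264720), the first BAG protein described, was at 30.2, 30.9 and 33.4 CPM in parental cells, at 50.1, 48.9 and 47.7 CPM in clone 15 and at 26.8, 31.3 and 30.0 CPM in clone 37. Clone 15 was highest without overlap, while clone 37 overlapped parental. It rose in clone 15 by 0.60 (adjusted p 3.33e-06, SE 0.09) and its log2 difference of clone 37 from clone 15 was -0.73 (adjusted p 2.87e-09, SE 0.08). The genes around BAG1 had a median of -0.63 in that comparison, and relative to them BAG1 stood at -0.10 (adjusted p 0.276). BAG6, which guides tail-anchored and misfolded proteins (ENSG00000204463, chromosome 6, 31639028 to 31652705), was at 267, 272 and 258 CPM in parental cells, at 372, 415 and 370.4 CPM in clone 15 and at 342, 322 and 324 CPM in clone 37. The order was parental, clone 37, clone 15, without overlap. BAG6 rose by 0.28 (adjusted p 0.000549, SE 0.06) and 0.51 (adjusted p 1.78e-05, SE 0.08) in clones 37 and 15, where its neighbours on chromosome 6 had medians of 0.17 and 0.32. BAG4, a silencer of death receptors, fell in clone 15, with a log2 fold change of -0.25. Without parental replicate 2 the value shrank to -0.12 and was not called (adjusted p 0.148). It was also not called without clone 15 replicate 1, 2 or 3 (-0.24, -0.21 and -0.23, adjusted p 0.0598, 0.0646 and 0.0626). BAG5 was at 65.8 ± 3.23, 72.7 ± 4.14 and 61.2 ± 0.844 CPM in parental, clone 15 and clone 37 and was not called against parental.

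All 8 co-chaperones were called in clone 37, 7 higher and 1 lower, against 26.7% and 27.3% of all genes. In clone 15, 4 were higher and 2 lower, against 25.1% and 26.2%. CHORDC1, an inducible HSP90 partner (ENSG00000110172, chromosome 11, 90201160 to 90223364), was at 121, 119 and 127 CPM in parental cells, at 144, 128 and 134 CPM in clone 15 and at 205, 211 and 213 CPM in clone 37. Clone 37 was far above the others, and clone 15 only just cleared parental. It rose in clone 37 by 0.75 (adjusted p 4.19e-09, SE 0.05) and differed between the clones by 0.63 (adjusted p 2.49e-10, SE 0.06). FKBP4, a peptidyl-prolyl isomerase of steroid receptor complexes (ENSG00000004478, chromosome 12, 2794953 to 2805423), was at 242, 244 and 232 CPM in parental cells, at 359, 377 and 382 CPM in clone 15 and at 420.3, 398 and 411 CPM in clone 37, and no groups overlapped. Its log2 fold changes were 0.75 (adjusted p 1.23e-08, SE 0.06) in clone 37 and 0.61 (adjusted p 1.04e-06, SE 0.08) in clone 15. The clone difference of FKBP4 was 0.14, with adjusted p-values of 0.111, 0.0964 and 0.0915 without clone 15 replicate 1, clone 37 replicate 1 and clone 37 replicate 3.

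STIP1, or HOP, which links HSP70 to HSP90 (ENSG00000168439, chromosome 11, 64185272 to 64204543), was at 236, 266 and 251 CPM in parental cells, at 332, 327 and 370.3 CPM in clone 15 and at 421, 401 and 419 CPM in clone 37. The groups were apart, with parental lowest and clone 37 highest. STIP1 rose by 0.69 (adjusted p 8.12e-08, SE 0.06) in clone 37 and 0.42 (adjusted p 0.000283, SE 0.09) in clone 15. The genes around it on chromosome 11 had medians of 0.19 and 0.43, so that in clone 15 STIP1 stood at -0.01 relative to them. STUB1, or CHIP, the ubiquitin ligase for chaperone clients (ENSG00000103266, chromosome 16, 680224 to 682870), was at 78.5, 86.5 and 79.4 CPM in parental cells, at 66.4, 81.5 and 62.4 CPM in clone 15 and at 128, 125 and 115 CPM in clone 37. Clone 37 was highest without overlap, and clone 15 overlapped parental. The log2 fold changes were 0.56 (adjusted p 9.68e-07, SE 0.06) in clone 37 and -0.25 (adjusted p 0.0277, SE 0.09) in clone 15. The fall in clone 15 was not called without parental replicate 2 (adjusted p 0.111) or without clone 15 replicate 1 or 3 (0.141 and 0.184).

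ST13, or HIP, which stabilises the client-bound form of HSP70 (ENSG00000100380, chromosome 22, 40824535 to 40857022), was at 406, 447 and 379 CPM in parental cells, at 305, 281 and 300.2 CPM in clone 15 and at 324, 297 and 312 CPM in clone 37. Parental was highest without overlap, and the clones overlapped. ST13 fell in both, with log2 fold changes of -0.43 (adjusted p 6.6e-05, SE 0.07) in clone 37 and -0.51 (adjusted p 4.54e-05, SE 0.09) in clone 15. Of its 75-base stretches 22.9% occur in another gene, mostly the pseudogene ST13P6, so some of its reads may not have been counted. The remaining HSP90 partners rose less. AHSA1, which activates the HSP90 ATPase, CDC37, which brings kinases, and PTGES3, or p23, rose in clone 37 by 0.16, 0.25 and 0.36, and AHSA1 and CDC37 rose in clone 15 by 0.37 and 0.36. The AHSA1 call in clone 37 ended without parental replicate 1 or 3 (adjusted p 0.142 and 0.203) and without clone 37 replicate 1, 2 or 3 (0.0513, 0.0719 and 0.253).

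Among the heat shock factors HSF1 was called in clone 37 and HSF2 in clone 15. HSF1, the main regulator of the heat shock response (ENSG00000185122, chromosome 8, 144291591 to 144314722), was at 93.1, 88.4 and 90.5 CPM in parental cells, at 75.5, 90.8 and 77.7 CPM in clone 15 and at 114, 112 and 106 CPM in clone 37. Clone 37 was highest without overlap, and clone 15 overlapped parental. It rose in clone 37 by 0.26 (adjusted p 0.000754, SE 0.06) and was not called in clone 15 (-0.19 (adjusted p 0.0581, SE 0.08)). It was called lower in clone 15 under 3 of 16 alternative settings: unstranded counts (adjusted p 0.0171), all 9 libraries in one fit (0.029) and without clone 15 replicate 2 (0.00861). Around HSF1 the medians were 0.14 and -0.24. HSF2, a factor that forms mixed trimers with HSF1 (ENSG00000025156, chromosome 6, 122399546 to 122433119), was at 63.7, 61.6 and 62.0 CPM in parental cells, at 46.6, 41.9 and 47.0 CPM in clone 15 and at 65.6, 66.0 and 68.0 CPM in clone 37. Clone 15 was lowest, and no groups overlapped. HSF2 fell in clone 15, with a log2 fold change of -0.50 (adjusted p 3.07e-05, SE 0.09), and was not called in clone 37 (0.07 (adjusted p 0.376, SE 0.06)). HSBP1, a small protein that binds HSF1 trimers and was named as their negative regulator (ENSG00000230989, chromosome 16, 83807843 to 83819737), was at 123, 144 and 123 CPM in parental cells, at 106, 109 and 108 CPM in clone 15 and at 205, 193 and 208 CPM in clone 37. The groups did not overlap, with clone 37 highest and clone 15 lowest. The log2 fold changes were 0.60 (adjusted p 1.65e-06, SE 0.07) in clone 37 and -0.31 (adjusted p 0.00362, SE 0.09) in clone 15. These are transcript levels, which do not show whether HSF1 was bound to DNA.

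Many member changes ran with those of the genes beside them. Each fold change was also taken relative to the median of the 100 tested genes around the gene on its chromosome, and tested again. That median came from the same libraries and was treated as fixed. The p-values therefore leave out its uncertainty and the spread among the neighbours. In clone 37, 25 members were then higher and 4 lower, where 18.3% and 24.2% of 16312 genes were called higher and lower in this way. The heat-inducible members among them were 15 higher and 1 lower of 16 tested. In clone 15, 13 members were higher and 8 lower, against 20.2% and 22.2% of 17479 genes, and 8 heat-inducible members were higher and none lower. Between the clones 26 were higher and 6 lower, against 25.3% and 25.5% of 17481 genes. Calls against parental that ended relative to the neighbours were those of HSPA14, TRAP1, DNAJA2, DNAJA3, DNAJB4, DNAJB5, DNAJB6, DNAJC5, DNAJC8, BAG6, HSF1, HSBP1 and CDC37 in clone 37 and of HSPA12A, HSP90AA1, HSPD1, DNAJA2, DNAJA3, DNAJB1, DNAJB5, DNAJC2, DNAJC9, BAG4, BAG6, HSBP1, STIP1 and STUB1 in clone 15. Other calls held but their log2 values moved by over 1.5 times. In clone 37 these were AHSA1 (to 0.51), DNAJB2 (to -0.35), DNAJC7 (to 0.25), HSP90AA1 (to 0.75), HSPA4 (to 0.30), HSPA4L (to 0.36), HSPA9 (to 0.24), ST13 (to -0.24) and STUB1 (to 0.20) relative to the neighbours. In clone 15 they were CDC37 (to 0.19), DNAJB4 (to -0.28), DNAJC5 (to 0.38), FKBP4 (to 0.36), HSPA1B (to 0.49) and HSPA8 (to 0.38). HSPA1B stood 1.84 above its neighbours in clone 37 (adjusted p 4.85e-11) and 0.49 above them in clone 15 (adjusted p 0.000396).

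Trends in GC content and length were also removed from each library. This ended the clone 15 calls of AHSA1 (0.15, adjusted p 0.132), BAG4 (-0.03, adjusted p 0.786), CDC37 (0.13, adjusted p 0.122), DNAJB1 (0.10, adjusted p 0.295), HSBP1 (-0.17, adjusted p 0.0596) and HSPA12A (-0.15, adjusted p 0.0944). It moved BAG2 (to 0.80), DNAJA2 (to -0.21), DNAJB14 (to -0.17), DNAJB4 (to -0.31), HSPA13 (to -0.52) and STIP1 (to 0.27) in clone 15 with the calls held. In clone 37 against parental it ended the call of AHSA1 (0.10) and moved no other called member by over 1.5 times. Between the clones it ended the calls of AHSA1, BAG2 and BAG4, turned those of DNAJB4 and HSPA13, and moved BAG3 (to 0.40), BAG6 (to -0.13), CHORDC1 (to 0.34), DNAJB14 (to 0.25), DNAJC5 (to -0.18) and STIP1 (to 0.41). Unstranded counts ended the calls of HSPA14, DNAJA2 and AHSA1 in clone 37 and of HSP90AA1, DNAJB1, DNAJC9 and STUB1 in clone 15. Thinned to the smallest library, HSPA1L, HSPA12A and DNAJB5 lost theirs in clone 15. Without parental replicate 2 the clone 15 values of HSPD1 and HSBP1 moved to -0.20 and -0.21 with their calls held.

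Chromosome 16 carries 5 members, TRAP1, DNAJA2, DNAJA3, HSBP1 and STUB1. All 5 rose in clone 37, as did 26.7% of all genes, and the chromosome's tested genes had a median of 0.31. In clone 15, 4 fell, as did 26.2% of all genes, and that median was -0.22. Relative to its neighbours, 1 of the 5, STUB1, was called higher in clone 37 (0.20, adjusted p 0.0239), and none was called in clone 15. HSBP1 rose in clone 37 beside neighbours with a median of 0.63. The 3 members of chromosome 9, DNAJA1, DNAJB5 and BAG1, all rose in clone 15 and were all lower in clone 37 than in clone 15, against 25.1% of all genes called higher in clone 15 and 29% called lower in clone 37 than in clone 15. Relative to their neighbours, DNAJB5 was lower in clone 37 than in clone 15 (-0.45, adjusted p 0.00767), and DNAJA1 and BAG1 were not called. In clone 15 against parental, DNAJA1 and BAG1 stayed called higher than their neighbours, and DNAJB5 did not (0.19, adjusted p 0.267). On chromosomes 2 and 14 neighbours were low in clone 37: the medians around DNAJB2, HSPD1, HSPE1, HSP90AA1, HSPA2, AHSA1 and BAG5 lay between -0.43 and -0.37. Relative to those neighbours, 6 of the 7 were called higher: HSP90AA1 by 0.75 (adjusted p 5.3e-06), HSPA2 by 0.55 (0.00162), HSPE1 by 0.55 (0.00972), AHSA1 by 0.51 (4.03e-06), HSPD1 by 0.36 (0.0028) and BAG5 by 0.24 (0.00888), where 18.3% of all genes were. DNAJB2 stood below its neighbours, at -0.35 (adjusted p 0.00781). Why neighbouring genes moved together was not tested.

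**Figure D3:**
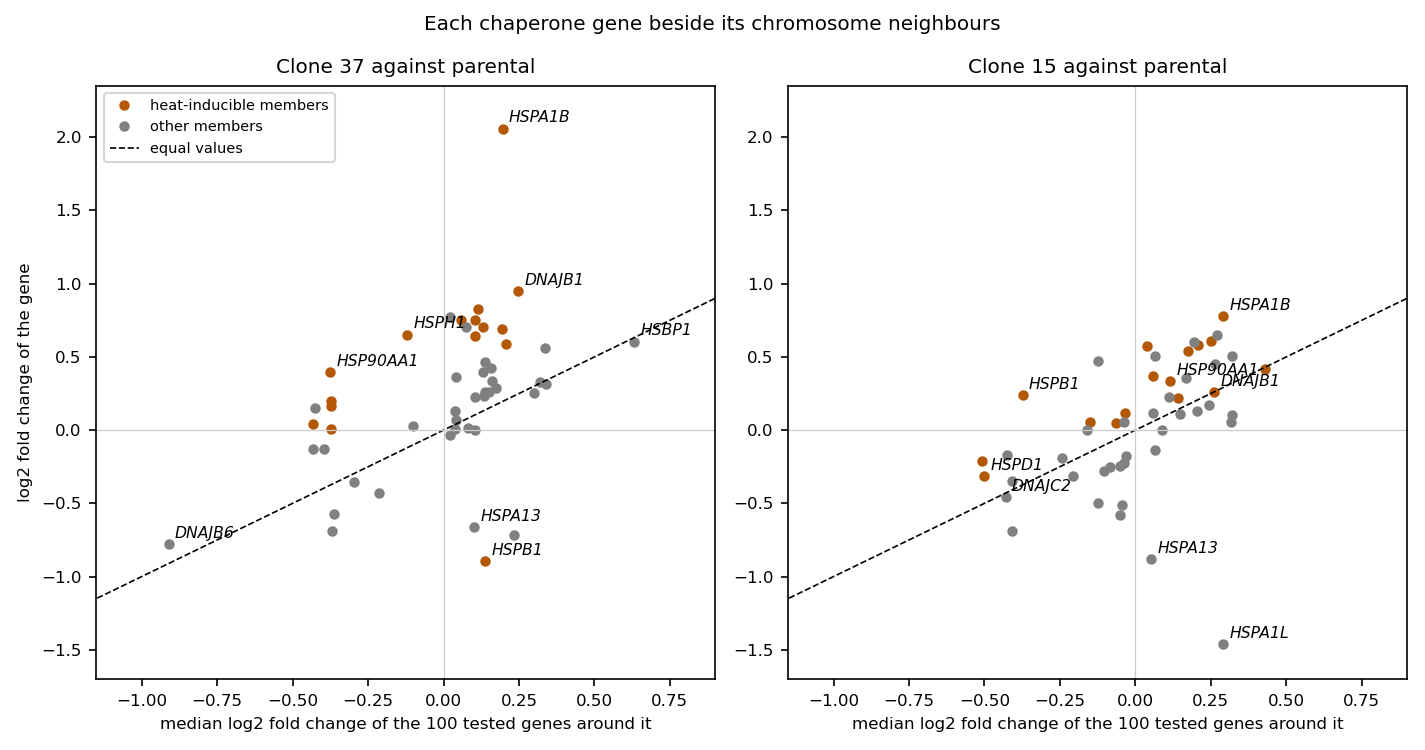
Log2 fold change of each tested member (vertical) against the median of the 100 tested genes around it (horizontal), for clone 37 (left) and clone 15 (right), with the line of equal values. In clone 37, HSPA1B (2.06 beside 0.20) and most heat-inducible members lie above the line, DNAJB6 and HSBP1 lie near it, and HSPB1 and HSPA13 lie below it.

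Heat shock element words were counted in RefSeq promoters, the 250 bases before to 50 bases after each start, for the 45 members with one. No promoter entry was used for ST13, STUB1, CRYAB, HSPA14, FKBP4, BAG4, HSF1 and HSPB11. The 3-unit words were GAANNTTCNNGAA and TTCNNGAANNTTC, and the 2-unit words GAANNTTC and TTCNNGAA, each read on both strands, and every 3-unit word contains 2-unit words. A 3-unit word was found in 7 of 45 members (15.6%) and in 166 of 27305 genes with a promoter (0.608%). A 2-unit word was found in 18 members (40%) and in 4417 genes (16.2%). Among heat-inducible members 6 of 16 held a 3-unit word and 12 a 2-unit word, against 1 and 6 of 29 other members. A match describes letters and is not a binding site.

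The 7 members with a 3-unit word are shown by 30 bases around 1 run of words, because these letters set them apart from most promoters. Sequences are from RefSeq (GRCh38.p14), 5′ to 3′ on the gene's strand, with the words in capitals. HSPA8 covers chr11:123062170-123062199, minus strand. HSP90AA1 covers chr14:102087111-102087140, minus strand. HSP90AB1 covers chr6:44247823-44247852, plus strand. HSPD1 covers chr2:197500061-197500090, minus strand. DNAJA1 covers chr9:33025268-33025297, plus strand. DNAJB6 covers chr7:157336865-157336894, plus strand. CHORDC1 covers chr11:90223083-90223112, minus strand.
HSPA8: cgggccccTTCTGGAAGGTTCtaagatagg
HSP90AA1: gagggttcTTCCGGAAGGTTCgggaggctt
HSP90AB1: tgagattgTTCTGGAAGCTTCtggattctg
HSPD1: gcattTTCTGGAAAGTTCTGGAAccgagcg
DNAJA1: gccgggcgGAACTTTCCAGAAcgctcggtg
DNAJB6: agagccgaGAACCTTCGCGAAggtggggcg
CHORDC1: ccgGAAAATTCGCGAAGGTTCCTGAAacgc
CHORDC1 had the longest run, 3 overlapping words, and HSPD1 had 2.

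The members with a 3-unit word did not all move one way. Of the 7 members with a 3-unit word, 4 rose in clone 37 (HSPA8, HSP90AA1, HSP90AB1 and CHORDC1), 1 fell (DNAJB6) and 2 were not called (HSPD1 and DNAJA1), with a median log2 fold change of 0.40, where 26.7% of all genes rose and 27.3% fell. Of the 36 tested members with a promoter and no such word, 21 rose and 5 fell, with a median of 0.26. In clone 15 the counts were 3 higher and 1 lower of 7, against 13 higher and 10 lower of 36, with medians of 0.22 and 0.11, where 25.1% and 26.2% of all genes were called. HSPH1 and BAG3, which rose in clone 37, held neither kind of word in this window, which says only that these letters are absent there. HSPA1B and DNAJB1, the members that rose most in clone 37, held 2-unit words alone.

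**Figure D4:**
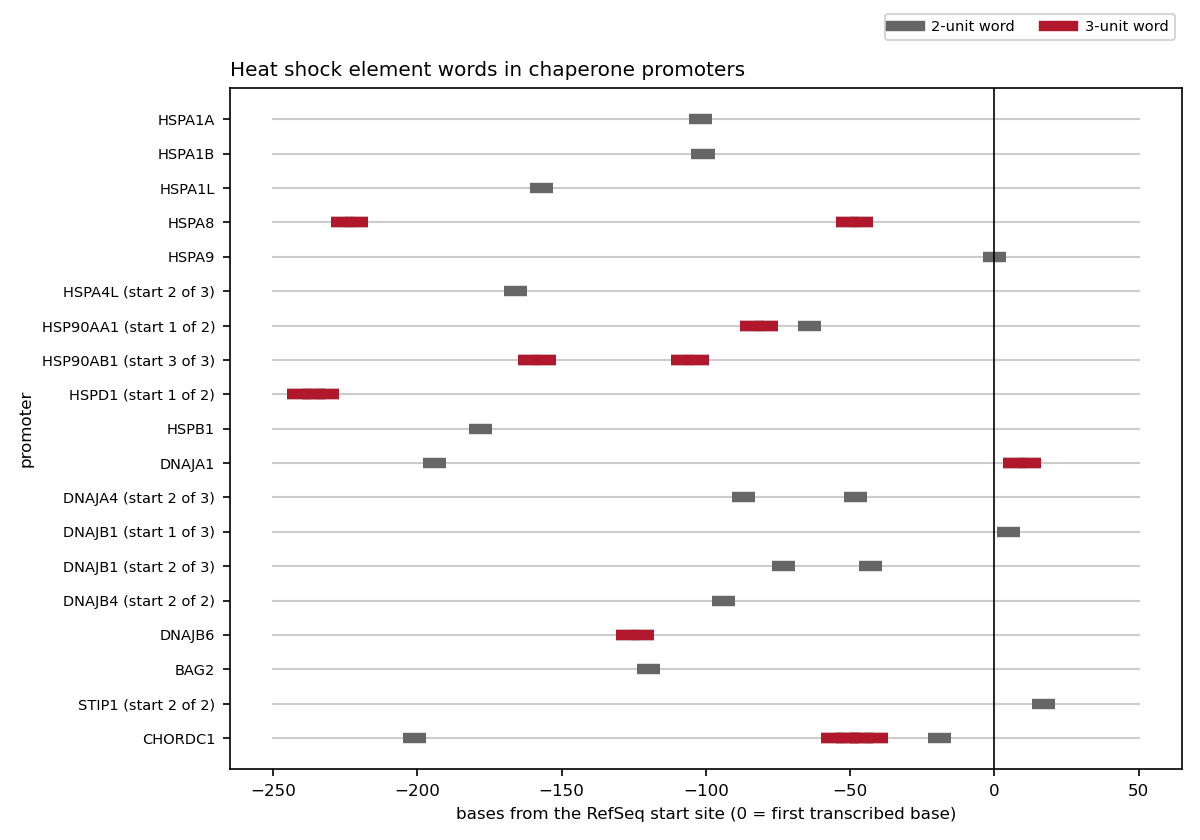
Position of 2-unit (grey) and 3-unit (red) heat shock element words in the member promoters that hold any, in bases from the RefSeq start site, with genes of several starts named by start. The words of HSPA1A and HSPA1B sit at nearly the same place, 106 and 105 bases before the start, and the run of CHORDC1 words lies close to its start.

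A further 58 chaperone and co-chaperone genes gave a wider view, a list also drawn up with earlier results known. In clone 37, 44 were tested, of which 20 rose, 10 fell and 14 were not called, with a median of 0.20, where 26.7% of all genes rose and 27.3% fell. In clone 15, 45 were tested, of which 18 rose, 10 fell and 17 were not called, with a median of 0.22, where 25.1% and 26.2% did. HSPB8, a small heat shock protein that works with BAG3, was at 2.50, 3.24 and 2.30 CPM in parental cells, at 6.75, 7.76 and 8.04 CPM in clone 15 and at 9.04, 8.03 and 8.91 CPM in clone 37. Both clones lay above parental, by 1.66 (adjusted p 7.72e-07, SE 0.18) in clone 37 and 1.44 (adjusted p 1.19e-06, SE 0.20) in clone 15. PPID, an isomerase that binds HSP90, was at 37.4, 40.6 and 39.3 CPM in parental cells, at 50.5, 45.6 and 50.6 CPM in clone 15 and at 78.1, 80.8 and 72.9 CPM in clone 37, clone 37 highest without overlap, and rose by 0.95 (adjusted p 3.53e-09, SE 0.07) and 0.29 (adjusted p 0.00954, SE 0.09). AARSD1 rose by 1.08 (adjusted p 0.00827, SE 0.30) and 0.88 (adjusted p 0.00896, SE 0.26), but 94.0% of its 75-base stretches occur in another gene, mostly the readthrough gene PTGES3L-AARSD1.

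Of the further genes that fell, NUDCD3, an HSP90 co-chaperone of the dynein pathway, was at 92.1, 91.5 and 96.1 CPM in parental cells, at 89.1, 89.5 and 85.5 CPM in clone 15 and at 52.4, 54.8 and 55.2 CPM in clone 37. Clone 37 lay below both other groups. The log2 fold change in clone 37 was -0.81 (adjusted p 5.25e-09, SE 0.06), and the difference from clone 15 was -0.70 (adjusted p 1.47e-10, SE 0.06). DNAJC4 and HSBP1L1 fell in clone 37, with log2 fold changes of -0.64 (adjusted p 0.000252, SE 0.12) and -0.61 (adjusted p 0.0496, SE 0.25). In clone 15 the largest decreases had log2 fold changes of -1.01 (adjusted p 8.83e-05, SE 0.19) for HSF4, -0.53 (adjusted p 0.00549, SE 0.15) for DNAJC27 and -0.52 (adjusted p 0.000208, SE 0.11) for NUDCD2, and DNAJB13 rose by 1.27 (adjusted p 0.00995, SE 0.40) from parental levels of 0.463, 0.288 and 1.07 CPM. HSF4 is a further heat shock factor, and 31.4% of its exons overlap the gene AC074143.1 on the same strand.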

How the data were processed

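RNA-seq gene counts of 9 HEK293T libraries, 3 in each of 3 groups, were analysed. Per the submitters' processing notes the tools included STAR 2.7.10a and FastQC 0.11.9 and the build was hg38. The deposited files hold the authors' raw counts per gene in the layout of STAR's gene counts, which leave out reads that map to several places. The annotation release is not given in the sources used here. Column 4, the strand that held 92.6% to 94.0% of stranded counts, was used, and the 4 summary entries were left out of totals. Gene positions, lengths and shared stretches are from GENCODE 29 on GRCh38, and promoters and sites from RefSeq on GRCh38.p14. GRCh38 and hg38 name the same assembly, and the count files hold no coordinates.

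Each pair of groups was fitted on its 6 libraries with edgeR 4.0.16 in R 4.3.3 (filterByExpr, TMM, glmQLFit with robust estimation, glmQLFTest), with Benjamini-Hochberg adjustment over all genes tested and a call at an adjusted p under 0.05. The SE of a log2 fold change is its size over the square root of F. The script was tested on simulated counts. Members with full values were HSPA1A, HSPA1B, HSF1, HSF2 and those called in a comparison with parental at an absolute log2 fold change of at least 0.5 with groups that did not overlap, and of the further list the 3 largest called increases and decreases in each clone. HSP90AA1 and HSPD1 fall outside this rule and were added after their values were seen. The members and lists were chosen with earlier results of these data known. The alternatives tried were a Wald test in DESeq2 1.42.0, size factors by RLE, other filters (none, or 1 CPM in 3 libraries), unstranded counts, all 9 libraries in one fit, the replicate number as a block, libraries thinned to the smallest total, removal of GC and length trends, chromosome neighbours, and leaving out each replicate. At the depths here a floor of 3 counts is 0.0788 to 0.290 CPM. Python 3.11.15, pandas 2.3.3 and scipy 1.17.1 served the rest.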

Additional observations from a re-analysis of the deposited data

Results flagged for a closer look

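Some members were called in opposite directions against parental in the clones, and also differed when the clones were compared directly with edgeR's quasi-likelihood test. The log2 difference of clone 37 from clone 15 was 0.5805 for DNAJA2, 0.5943 for DNAJA3, 0.9152 for HSBP1 and 0.8109 for STUB1, all on chromosome 16, 1.162 for DNAJC2 on chromosome 7 and -1.023 for DNAJB5 on chromosome 9. Over all genes tested in both comparisons, which share the parental libraries, 3.53% were called higher in clone 37 and lower in clone 15, as were DNAJA2, DNAJA3, DNAJC2, HSBP1 and STUB1, and 3.01% the reverse, as was DNAJB5. Relative to their chromosome neighbours, the clones differed for DNAJC2 by 0.80, for STUB1 by 0.34, for DNAJA3 by 0.18 and for DNAJB5 by -0.45, and DNAJA2 and HSBP1 were not called. Against parental, the clone 15 call of each of these members ended relative to the neighbours. The clone 37 calls of DNAJA2, DNAJA3, DNAJB5 and HSBP1 ended as well. None thus stayed called in opposite directions against parental in that setting. The clone 15 libraries were read at 100 bases and the others at 75, and in any comparison with clone 15 the clone cannot be told apart from its longer reads.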

How the results depend on the processing

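Of the 36 members called in clone 37 against parental, 22 kept direction and call under all 16 alternative settings, as did 14 of 31 in clone 15 and 22 of 41 between the clones. The same count over all genes is not given here. The setting that changed most was the comparison with chromosome neighbours. Under it the members called lower came to 4 for clone 37, 8 for clone 15 and 6 for the comparison of both. Of all genes, 24.2%, 22.2% and 25.5% were called lower in this way. Members called higher came to 25, 13 and 26, where 18.3%, 20.2% and 25.3% of all genes were. By subtracting the neighbours' median, it reversed the sign of TRAP1 (-0.0166), DNAJA3 (-0.0484), DNAJB6 (0.1107), HSBP1 (-0.05) and CDC37 (-0.069) in clone 37. In clone 15 it reversed HSPD1 (0.1909), DNAJA2 (0.0602), HSF1 (0.0577) and STIP1 (-0.0089), and between the clones DNAJA1 (0.1375), DNAJB6 (0.0203), BAG5 (0.3252) and AHSA1 (0.2672). Only BAG5 and AHSA1 between the clones were called in the new direction. The others were then not called, and HSF1 in clone 15 was not called before. Removing GC and length trends ended 6 calls of members in clone 15 and 1 in clone 37, and reversed HSPA13 (-0.0903) and DNAJB4 (-0.0194) between the clones, and the cause was not tested. Leaving out 1 library moved the members called lower in clone 15 between 9 and 14, the former without clone 15 replicate 1. Without that library 22.7% of all genes were called lower, against 26.2% with all libraries.

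With the replicate number as a block, 35 members were called in clone 37, 32 in clone 15 and 42 in the comparison of both, against 36, 31 and 41 without it, and 8375, 8708 and 10490 of all genes, against 8903, 9092 and 10223. Deviations of same-numbered libraries correlated between -0.16 and 0.02, which gave no sign of pairing by number. With 3 libraries a group, this does not show whether they shared a culture or a batch. AHSA1 in clone 37 lost its call under 13 settings, HSPA14 in clone 37 and HSPA12A in clone 15 under 8 each. CRYAB, DNAJA4 and HSPA1L had few counts in every group, which limits what can be said of them.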
